A study of Mus musculus with 12 samples.

Results

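The first methylation libraries taken after doxycycline were compared between an Sdhc-loss fibroblast line and its control. These were the experimental and control libraries of days 5 and 9, 2 a line, and their members were the 1165466 autosomal cytosines with a value in all 4 of them. The whole series held 12 libraries, 6 a line, from day 0 to day 20. Of the shared cytosines, 747609 differed in value between at least some of the 4 libraries and were analysed, and they gave 14317 promoters and 99418 windows of 500 bp with at least 3 cytosines. A promoter was taken as the 1500 bp before the transcription start site (TSS) and the 500 bp after it.

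Both lines were immortalized mouse embryonic fibroblasts (iMEFs), made from embryos with SV40 and carrying R26M2rtTA/+ and TetOcre, a Cre recombinase that doxycycline turns on. The experimental line was Sdhcfl/fl, so that both copies of Sdhc could be rearranged, and the control line was Sdhcfl/wt and kept 1 wild-type copy. Both were grown in low-glucose medium and both received doxycycline at 1 microgram per mL, so that recombination and the drug were shared and day 0 was the sample before it. Each genotype was represented by 1 line, and the libraries of days 5 and 9 were repeat harvests of it at different times. The spread between them therefore held the change over these days, and differences between the genotypes cannot be told apart from differences between these lines.

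Sdhc encodes a membrane subunit of succinate dehydrogenase, the enzyme that turns succinate into fumarate in the TCA cycle and the respiratory chain. Succinate competes with 2-oxoglutarate at TET enzymes, which oxidise 5-methylcytosine, and tumours that lack the enzyme are known for dense methylation of CpG islands. In reduced representation bisulfite sequencing (RRBS), DNA is cut at CCGG and bisulfite leaves methylated cytosines unconverted, so the value of a cytosine, here a beta value from 0 to 1, is the share of reads that kept it. The deposited values carried no read depth, so the precision of a single value is unknown.

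The libraries listed between 1417046 cytosines (experimental, day 9) and 1716381 (control, day 5). The sex chromosomes also differed between the lines: the experimental line had 1564 and 1229 listed Y chromosome cytosines at days 5 and 9 against 171 and 192 in the control line, and 17.1% and 11.1% of its X chromosome cytosines lay between 0.2 and 0.8 against 43.3% and 40.3%. Day 0 showed the same Y chromosome gap, at 1553 against 166. The labelled cell type was checked at promoters. Of 13 fibroblast markers 11 had a value, and 7 were under 0.2 in all 4 libraries, including Fn1 and Twist2. Of all tested promoters 65.7% had a control mean and 62.6% an experimental mean under 0.2, so these low values do not mark the cell type. Of 8 epithelial markers 5 had a value, with 1 under 0.2 and 0 over 0.8 in all 4. Of 8 endothelial and blood markers 3 had a value, with 0 under 0.2 and 0 over 0.8 in all 4. The promoters of Pdgfra and Col1a2 were methylated in both lines, from 0.708 to 0.777 and from 0.534 to 0.855, while all 5 germline markers with a value, of 6 listed, were above 0.8 in all 4.

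No promoter passed the threshold between the lines at days 5 and 9. With limma on 4 libraries, 0 of 14317 promoters (0.0%) had an adjusted p under 0.05, and the smallest adjusted p was 0.381. At an unadjusted p under 0.05 there were 1401 promoters, or 9.79% of those tested, of which 960 were higher and 441 lower in the experimental line. Without the day 9 control library the unadjusted count was 698. A count of 0 in 2 libraries against 2 does not show that the lines had the same methylation.

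The differences leaned toward the experimental line. At 3995 promoters (27.9%) both experimental libraries lay above both control libraries, and at 2053 (14.3%) they lay below. Among these, 537 promoters (3.75%) were higher by more than 0.2 and 254 (1.77%) were lower by more than 0.2. The promoters that were over 0.2 higher had a median beta value of 0.308 in the control line and 0.614 in the experimental line, while the lower ones went the other way, at 0.616 and 0.300. Over all tested promoters those medians were 0.0938 and 0.112. The groups were chosen on these same values, which partly fixes their levels.

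Libraries of 1 line also differed from each other. Beta values of 7.34% of promoters differed by more than 0.2 between days 5 and 9 in the experimental line and 4.74% in the control line, while 7.71% did so between the lines at day 5 and 11.4% at day 9. Differences between the day 5 and day 9 libraries of the experimental line were thus about as frequent as the day 5 difference between the lines. The day 9 experimental library had 30.8% of its autosomal values at exactly 1. The share was 24.9% at day 5 and 23.4% and 23.8% in the control line. Adjacent cytosines, read as the 2 strands of 1 CpG, differed by 0.132 on average in it, against 0.109, 0.104 and 0.110. The part of these differences that came from the precision of that library was not tested. Leaving out the day 5 experimental library raised the promoters over 0.2 to 964 higher and 446 lower. Without the day 9 experimental library they were 651 and 324. They were 715 and 417 without the day 5 control library, and 637 and 349 without that of day 9. In each of these settings 1 library on a side overlaps less easily with the other side than 2 do. Why the rise was largest without the day 5 experimental library was not tested.

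The sequences of 4 promoters that carry large differences are shown first, since they show how the analysed CpGs are spread. They run 5′ to 3′ on the gene's strand, from 250 bases before the TSS to 50 after it, and were taken from RefSeq (build GRCm38.p6, the mm10 assembly). Capitals mark the CpGs with a value in all 4 libraries that varied. Hoxa6 (chr6:52208623-52208922, minus strand) encodes a homeobox factor, and P4ha3 (chr7:100285270-100285569, plus strand) a collagen prolyl 4-hydroxylase subunit that uses 2-oxoglutarate. LOC115486982 (chr8:126945548-126945847, minus strand) is an uncharacterised gene whose TSS lies downstream of the Tomm20 TSS on the same strand. Vmn2r29 (chr7:7278240-7278539, minus strand) encodes a vomeronasal receptor.
Hoxa6: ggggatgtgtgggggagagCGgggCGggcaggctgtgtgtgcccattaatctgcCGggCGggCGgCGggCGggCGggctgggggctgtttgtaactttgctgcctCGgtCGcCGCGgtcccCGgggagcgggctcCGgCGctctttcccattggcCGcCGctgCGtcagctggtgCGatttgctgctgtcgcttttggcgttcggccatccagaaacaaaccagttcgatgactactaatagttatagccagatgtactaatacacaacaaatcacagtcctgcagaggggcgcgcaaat
P4ha3: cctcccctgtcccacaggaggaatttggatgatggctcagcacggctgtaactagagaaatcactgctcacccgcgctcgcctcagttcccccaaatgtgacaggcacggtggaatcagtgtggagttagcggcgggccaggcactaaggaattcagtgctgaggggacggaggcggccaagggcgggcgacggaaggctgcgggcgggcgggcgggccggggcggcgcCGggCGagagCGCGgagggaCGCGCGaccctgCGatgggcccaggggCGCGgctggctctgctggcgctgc
LOC115486982: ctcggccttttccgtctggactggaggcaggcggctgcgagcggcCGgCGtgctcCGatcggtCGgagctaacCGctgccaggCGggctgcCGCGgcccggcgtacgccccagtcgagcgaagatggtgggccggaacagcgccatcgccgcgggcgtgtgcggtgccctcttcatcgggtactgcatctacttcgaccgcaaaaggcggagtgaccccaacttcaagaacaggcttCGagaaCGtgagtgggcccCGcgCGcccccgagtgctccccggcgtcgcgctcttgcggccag
Vmn2r29: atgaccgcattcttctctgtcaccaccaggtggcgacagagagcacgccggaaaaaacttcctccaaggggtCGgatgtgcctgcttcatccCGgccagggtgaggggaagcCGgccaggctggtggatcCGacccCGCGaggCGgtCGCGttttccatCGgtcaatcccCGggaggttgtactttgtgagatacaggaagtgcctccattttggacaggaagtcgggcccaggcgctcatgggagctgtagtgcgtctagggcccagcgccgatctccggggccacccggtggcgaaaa
Of the CpGs in these windows 19 of 26 had a value in all 4 libraries that varied in Hoxa6, 10 of 30 in P4ha3, 12 of 41 in LOC115486982 and 11 of 23 in Vmn2r29; CpGs with 1 constant value in the 4 are among the rest. The letters CCGG, read the same on both strands, occurred 3, 2, 4 and 6 times in them, and occurred in 52.8% of all 32851 RefSeq promoter windows of this length. Of the 34 promoters named by the rule 23 had a RefSeq promoter window.

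The 10 largest increases and 10 largest decreases among promoters with 5 or more cytosines, the same sign at both days and no overlap between lines were then described. None passed the threshold with limma, at adjusted p from 0.381 to 0.476 for the higher ones and 0.381 to 0.506 for the lower ones. Day 0 values were taken over those cytosines of a promoter that were also listed at day 0, 42 of 50 in Hoxa6.

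Hoxa6 had beta values of 0.905 and 0.873 at days 5 and 9 in the experimental line and 0.237 and 0.370 in the control line over 50 cytosines. The difference was 0.585, and at 41 of the 50 cytosines both experimental values exceeded both control values. Before doxycycline the lines stood at 0.838 and 0.451, so the direction was there at day 0.

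Thbd, which encodes thrombomodulin, the thrombin receptor of endothelial cells, had 0.867 and 0.944 in the experimental line and 0.327 and 0.142 in the control line (13 cytosines from -330 to -52 bp, chr2:148407689-148409688, minus strand). All 13 cytosines separated the lines. At day 0 the values were 0.879 and 0.117, and at days 12 to 20 they ran from 0.887 to 1.0 and from 0.0719 to 0.268.

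Hoxaas3, an antisense noncoding RNA of the HoxA cluster, had 0.905 and 0.847 against 0.331 and 0.368, with 0.912 and 0.448 at day 0. Gm807, a noncoding gene, had 0.877 and 0.953 against 0.290 and 0.282, with 0.770 and 0.537 at day 0. E030011O05Rik and Gm32940 were also in the same order at day 0. E030011O05Rik had 0.828 and 0.782 against 0.226 and 0.247, with 0.658 and 0.234 at day 0. Gm32940 had 0.702 and 0.843 against 0.194 and 0.220, with 0.624 and 0.120 at day 0.

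Gm51701, an uncharacterised gene, showed the opposite direction. Over 18 cytosines it had 0.0401 and 0.0699 in the experimental line and 0.780 and 0.719 in the control line, and all 18 were lower in both experimental libraries (chr9:123923648-123925647, plus strand). The day 0 values were 0.0291 and 0.713. The late libraries ran from 0.0170 to 0.0295 and from 0.754 to 0.771, and this was the 1 promoter that passed the threshold when all 12 libraries were fitted (limma, M-value difference -5.47, SE 0.46, adjusted p = 0.0114).

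Prrx1, a homeobox factor of limb and facial mesenchyme, had 0.0750 and 0.0418 against 0.519 and 0.720, with 0.159 and 0.463 at day 0. Gm10254 had 0.385 and 0.0139 against 0.847 and 0.857, with 0.250 and 1.0 at day 0. Its experimental libraries were far apart from each other.

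A few promoters had differences that the day 0 libraries did not show. LOC115486982 and Tomm20, the import receptor of the outer mitochondrial membrane, shared the same 14 varying cytosines, with 0.504 and 0.627 in the experimental line and 0.00611 and 0.0 in the control line. The day 0 values were 0.00649 and 0.0. The difference of 0.562 was 0.231 with the cytosines of 1 constant value kept, 34 in all, and 0.0384 over the 4 cytosines listed in all 12 libraries, which hold none of the 7 described next. At 7 of the 14 cytosines, which lie in the first stretch of capitals above, the value was exactly 1 in both experimental libraries and exactly 0 in both control libraries. In the experimental libraries of days 12 to 20 these 7 cytosines ranged from 0.0 to 0.429. Adjacent cytosines of 1 fragment are read together, and with no depth it cannot be said how many molecules gave these values.

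Pctp, a phosphatidylcholine transfer protein, had 0.802 and 0.689 against 0.161 and 0.227, and 0.464 and 0.415 at day 0. P4ha3 had 0.5 and 1.0 against 0.0 and 0.1, with no day 0 value over its 10 cytosines, so its difference cannot be set against day 0. Its values in the experimental libraries of days 5 and 9 were all exactly 0 or 1. In the experimental library of day 12 all 10 cytosines stood at 0.0, and in that of day 16 they ran from 0.0 to 0.9. Without the day 9 experimental library the P4ha3 difference was 0.45 in place of 0.7.

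Among the decreases, Mrpl23, a mitochondrial ribosomal protein, had 0.0857 and 0.0797 against 0.693 and 0.294, with 0.0400 and 0.0667 at day 0. Mavs, the mitochondrial adaptor of antiviral signalling, had 0.178 and 0.00658 against 0.496 and 0.532, with 0.127 and 0.243 at day 0. With a promoter of the same length centred on the TSS the difference was -0.130 in Mavs, against -0.422, and -0.212 in Mrpl23, against -0.411. It was also -0.212 in Mrpl23 without the day 5 control library. Vmn2r29 had 0.129 and 0.0681 against 0.442 and 0.727, with 0.319 and 0.21 at day 0 over 6 of its 17 cytosines. Over the 3 Vmn2r29 cytosines listed in all 12 libraries the day 5 and 9 difference turned to 0.00763. Lrrtm2, a synaptic adhesion protein, had 0.316 and 0.579 against 0.893 and 0.905, with 0.569 and 0.779 at day 0. The remaining decreases were the genes LOC115488130, Gm5294 and Gm5466. The Gm5466 difference of -0.407 was -0.155 without the day 9 experimental library and -0.66 without that of day 5.

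**Figure D1:**
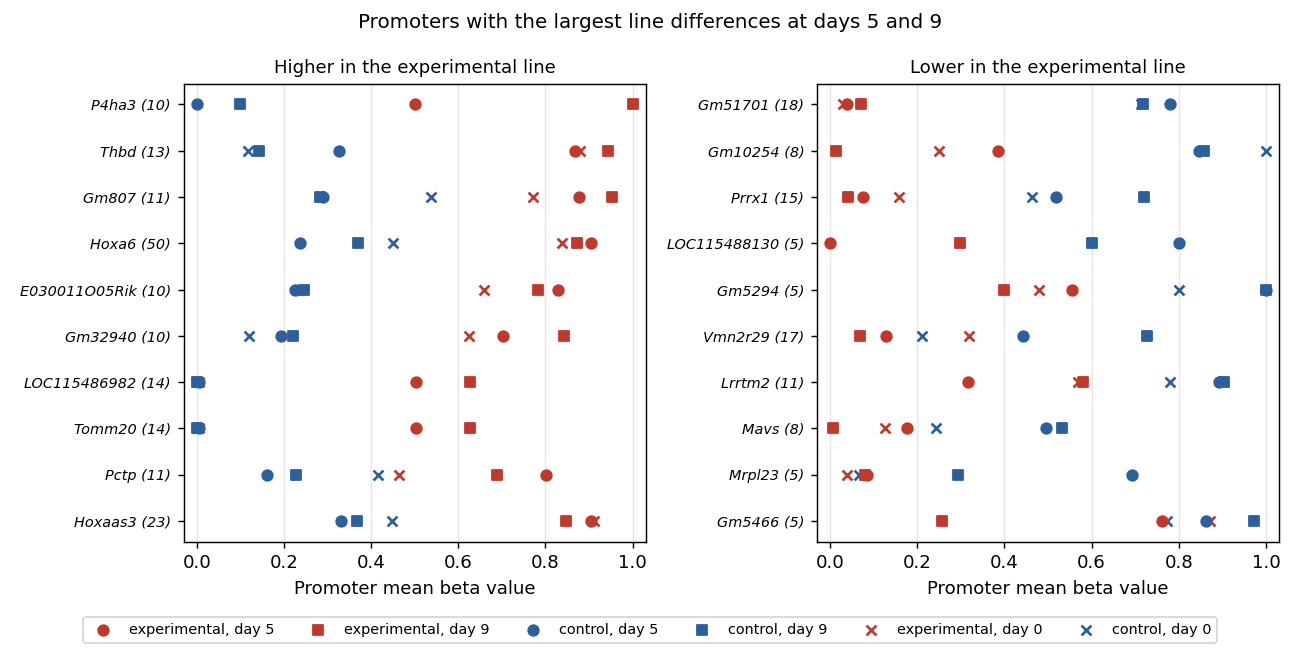
Mean beta value (x axis, 0 to 1) of the 20 promoters with the largest differences, 1 row each with the number of cytosines in brackets; red is the experimental and blue the control line, circles are day 5, squares day 9 and crosses day 0. Thbd, Hoxa6, Gm51701 and Prrx1 were separated in the same direction at day 0, while the day 0 crosses of Pctp lay together at 0.464 and 0.415.

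**Figure D2:**
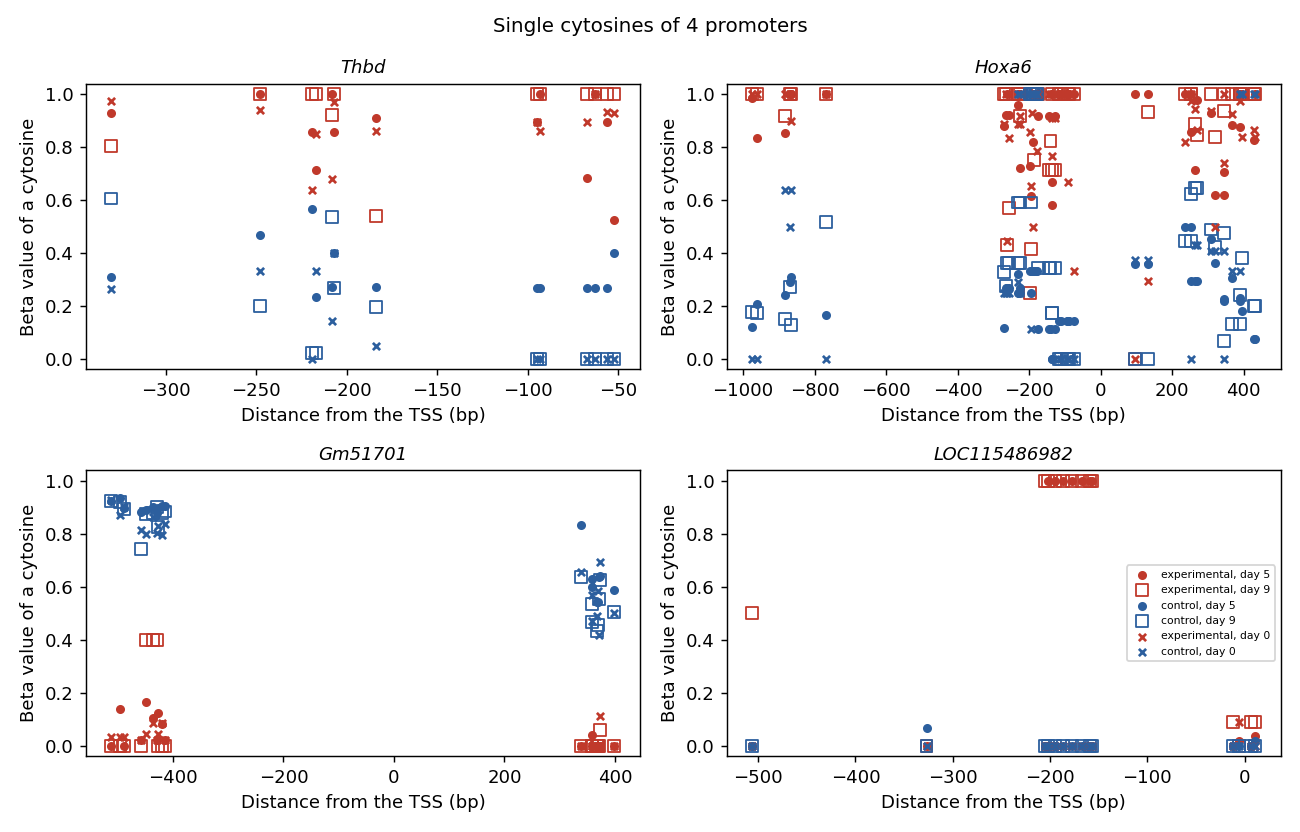
Beta value of each measured cytosine (y axis) against its distance from the TSS in bp (x axis) in 4 promoters; red is the experimental and blue the control line, filled circles are day 5, open squares day 9 and crosses day 0. All 13 Thbd and all 18 Gm51701 cytosines separated the lines, and in LOC115486982 7 cytosines stood at 1 in the experimental and 0 in the control libraries.

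How much of the large differences was there before the drug was read from the 2 day 0 libraries, which the comparison did not use. Of the 537 higher promoters 489 had 3 or more of their cytosines at day 0, and 182 of these (37.2%) were higher by over 0.2 then, against 4.84% of all promoters. Of the 489, 386 had the same direction at day 0 (78.9%, against 53.9% of all promoters), 149 differed by less than 0.1, and 25 were lower by over 0.2. Their median difference was 0.257 at days 5 and 9 and 0.147 at day 0. The promoters were chosen on their values at days 5 and 9, which enlarges the first median. The pair therefore cannot show whether the difference grew after day 0.

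The 254 lower promoters showed the same pattern. Of 216 with day 0 values 78 (36.1%) were lower by over 0.2 at day 0, against 3.43% of all promoters, and 157 had the same direction (72.7%, against 38.2% of all promoters). The medians were -0.259 and -0.129, of which the first is enlarged by the choice in the same way. The late days share no library with days 5 and 9. There 112 of 346 higher promoters (32.4%) and 60 of 145 lower promoters (41.4%) differed by over 0.2 in the same direction. Of all promoters 3.07% and 1.76% did so. The median difference at the late days was 0.148 in the higher and -0.160 in the lower promoters, against 0.147 and -0.129 at day 0. The promoters with late values and those with day 0 values were not the same sets.

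**Figure D3:**
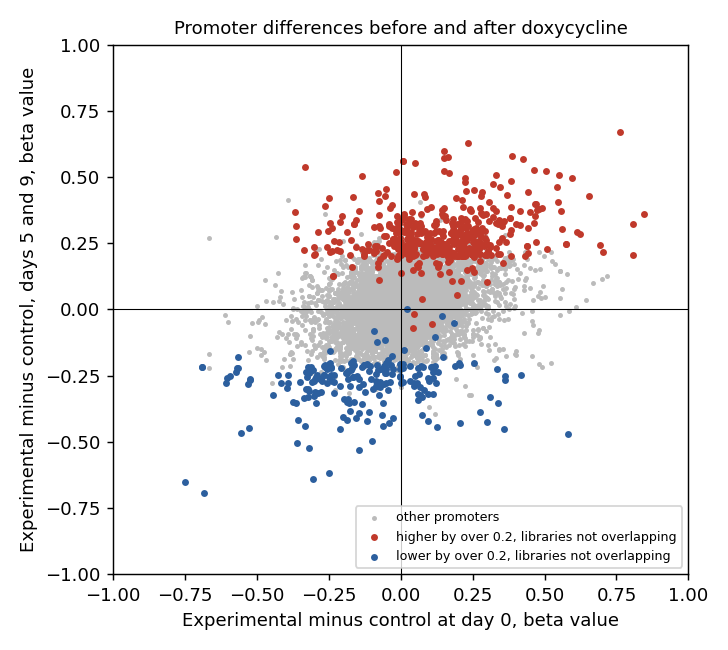
Difference between the lines in promoter beta value at day 0 (x axis, 1 library a line) and at days 5 and 9 (y axis, mean of 2 libraries a line) over the same cytosines, 1 point a promoter. Of the red points, higher by over 0.2 at days 5 and 9, 386 of 489 lie to the right of 0, and of the blue points, lower by over 0.2, 157 of 216 lie to the left.

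The change of the line difference since day 0 was then tested in all 12 libraries, in which the day 0 libraries, 1 a line, are assumed to vary like the others. With limma 0 of 12479 promoters passed the adjusted threshold, with a smallest adjusted p of 0.172, and 637 (5.1%) had an unadjusted p under 0.05. The count of calls rested on the scale: 2 promoters passed with an offset of 0.001 in place of 0.01, both over 3 cytosines. When beta values replaced M-values 21 passed, with 19 of the 21 rising and Rraga and Gpc2 falling. H2bu1-ps, Trim17 and H2aw had identical values, as did 4933405D12Rik and 1810037I17Rik, so the 21 are not all separate regions. Some of them, such as Rraga and Atoh8, rested on 3 cytosines. Among the 21, picked out here after their values were seen, were Decr2, a reductase of fatty acid oxidation, with a change in the line difference of 0.331 in beta value over the 7 cytosines of all 12 libraries (SE 0.0183, limma on beta values, adjusted p = 0.00291), and Alad, an enzyme of heme synthesis, with 0.276 over 8 cytosines (SE 0.0185, limma on beta values, adjusted p = 0.00375). The difference at days 5 and 9 was also tested against that of days 12 to 20, where limma called 0 promoters at a smallest adjusted p of 0.537, and 620 (4.97%) had an unadjusted p under 0.05.

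The promoters whose line difference was farthest from that of day 0, among those without overlap, are given as a description. Gm34317, a noncoding gene, had a line difference of -0.381 at day 0 and 0.327 at days 5 and 9 over the 7 cytosines of all 12 libraries, a change of 0.708. The change over such cytosines was 0.481 in Smpd5, a sphingomyelinase gene, 0.477 in 5730507C01Rik, 0.473 in Qsox1, a sulfhydryl oxidase, and 0.458 in Igf2r, the imprinted receptor for insulin-like growth factor 2. In Igf2r this came with the day 0 control library, which stood at 0.898 over 14 of its 23 cytosines. Over all 23 the control libraries of days 5 and 9 stood at 0.319 and 0.345 and the experimental ones at 0.389 and 0.421. Over the same 14 the Igf2r line difference was -0.425 at day 0 and 0.0306 at days 5 and 9. Smpd5 had 0.861 in the day 0 control library and 0.537 and 0.536 later. The 5730507C01Rik change rested on 5 of its 44 cytosines. Over its 34 cytosines listed at day 0 the line difference was 0.0664 at day 0 and 0.0531 at days 5 and 9, so the change was not seen there.

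In the other direction the change was -0.663 in Gm8116, -0.629 in Gm52400, -0.540 in Asic4, an acid-sensing ion channel gene, -0.499 in Lrrtm2 and -0.488 in Gm40847. It rested on 5 of 21 cytosines in Asic4, 6 of 11 in Lrrtm2 and 5 of 15 in Gm40847. Over the 13 Gm40847 cytosines listed at day 0 the line difference was 0.272 at day 0 and 0.211 at days 5 and 9. In Lrrtm2 it was -0.211 and -0.451 over 11 cytosines, and in Asic4 0.00955 and -0.273 over 19. The day 5 and 9 difference of Qsox1 itself was 0.360, and 0.154 with constant cytosines kept. None of these 10 changes passed with limma (adjusted p from 0.896 to 1.0). Gm8116 had 0.0750 in the day 0 control library and 0.578 and 0.867 at days 5 and 9. Over its full 15 cytosines Gm40847 was higher in the experimental line, at 0.812 and 0.690 against 0.576 and 0.524. Gm52400 had 0.462 in the day 0 experimental library and 0.138 and 0.102 later.

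Hox genes encode the homeobox factors that set position along the body, and their 4 clusters hold dense CpG islands. Of 39 Hox names 34 had a tested promoter and 0 passed with limma. At 23 of the 34 (67.6%) the libraries did not overlap between the lines, 9 higher and 14 lower in the experimental line, against 27.9% and 14.3% of all promoters. An unadjusted p under 0.05 was found at 12 (35.3%, against 9.79%), 4 higher and 8 lower. Neighbouring Hox promoters can share cytosines and are not independent. The median difference over the 34 was -0.0259, against 0.0113 over all promoters.

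In the HoxA cluster the promoters higher in both experimental libraries included Hoxa2, Hoxa4, Hoxa5 and Hoxa6, and the lower ones included Hoxa9, Hoxa10, Hoxa11 and Hoxa13. The gap was small in Hoxa4, at 0.138 and 0.141 against 0.113 and 0.127. Hoxa2 had 0.725 and 0.903 against 0.182 and 0.467. Hoxa5 had 0.413 and 0.507 against 0.221 and 0.294. Hoxa9 had 0.0586 and 0.00641 against 0.205 and 0.358. Hoxa11 had 0.0129 and 0.0153 against 0.193 and 0.102 over 35 cytosines. The Hoxa11 promoter was thus close to unmethylated in both experimental libraries.

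In the HoxD cluster Hoxd4 had 0.610 and 0.724 against 0.369 and 0.296, and Hoxd9 had 0.680 and 0.584 against 0.470 and 0.382. Hoxd8 had 0.0149 and 0.0591 against 0.289 and 0.206, and Hoxd13 had 0.00772 and 0.00398 against 0.187 and 0.176. In the HoxB cluster no promoter was higher in both experimental libraries, and Hoxb1 had 0.0191 and 0.0 against 0.390 and 0.306. In the HoxC cluster Hoxc12 was at 0.222 and 0.275 against 0.0825 and 0.0907. All 23 Hox promoters without overlap had their difference in the same direction at day 0. The share was 62.2% over all 5801 promoters without overlap that had 3 or more cytosines at day 0. These sets were not matched for size: the median size of the difference was 0.0864 over Hox promoters and 0.0371 over all promoters. Among all promoters without overlap and over 0.2, the share was 78.9% for the higher and 72.7% for the lower ones. How far Hox promoters stand apart from others of like size was not tested.

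**Figure D4:**
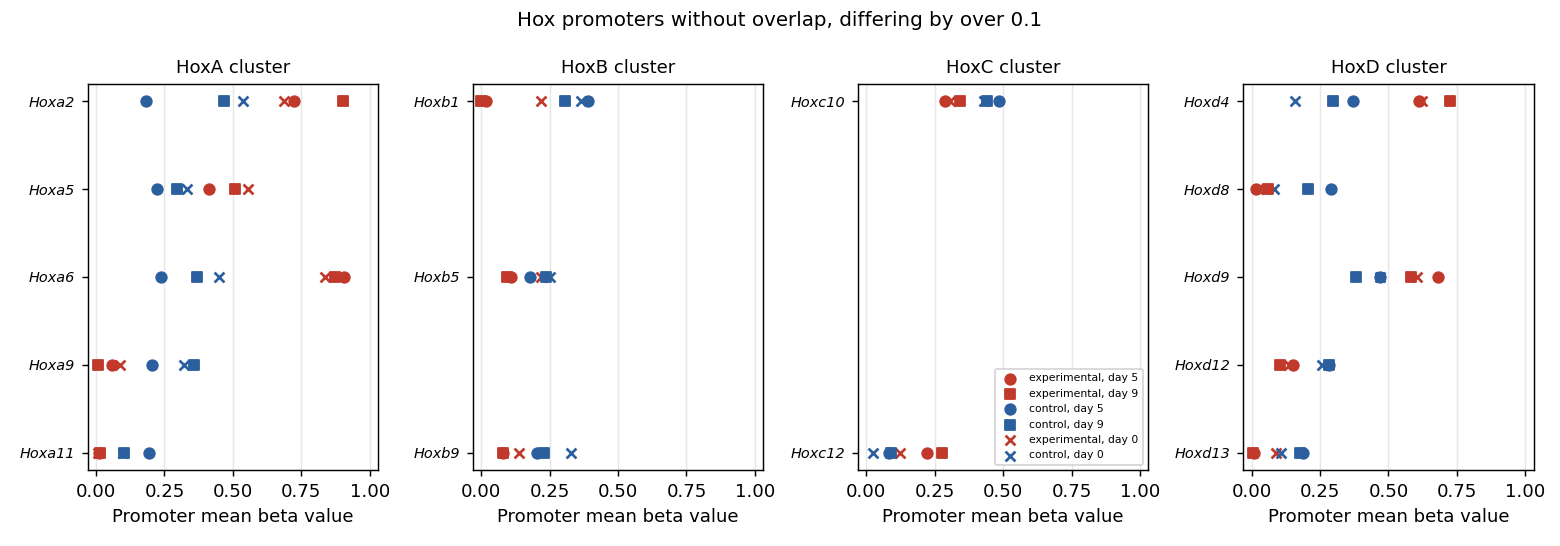
Mean beta value (x axis) of the Hox promoters without overlap between the lines and a difference over 0.1, ordered by paralogue number from top to bottom in each cluster; red is the experimental and blue the control line, circles are day 5, squares day 9 and crosses day 0. Hoxa6, Hoxa2 and Hoxd4 were higher in the experimental line, and Hoxb1, Hoxd13 and Hoxa11 were near 0 in it.

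No member of the 24 gene lists passed with limma in either direction (0 called, summed over 694 list entries), and list medians ran from -0.0631 in HoxD to 0.130 in the endothelial and blood list, against 0.0113 over all promoters. None of the 8 tested promoters of succinate dehydrogenase subunits and assembly factors reached an unadjusted p under 0.05 with limma, against 9.79% of all promoters. A list of 8 can easily hold none at that share. Sdhc itself had 0.0529 and 0.0200 against 0.0 and 0.0266 over 5 cytosines, so its promoter was almost unmethylated in all 4 libraries. Sdhb had 0.00340 and 0.00984 against 0.167 and 0.00265, in which the control library of day 5 stood alone.

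Genes around the enzyme were then taken. Of 22 promoters of TCA cycle and anaplerosis genes 2 (9.09%, against 9.79% of all promoters) reached the unadjusted threshold, both higher, and the median difference was 0.00224. Aldh2, a mitochondrial aldehyde dehydrogenase, had 0.596 and 0.646 against 0.409 and 0.566. Pcx, pyruvate carboxylase, had 0.154 and 0.0577 against 0.0128 and 0.0778, and Ldha, lactate dehydrogenase A, had 0.478 and 0.750 against 0.674 and 0.771. The Pcx values rested on 6 of its 33 listed cytosines, the rest being constant, which raises its level. Those of Aldh2 and Ldha rested on 4 cytosines each. At day 0 Ldha stood at 0.429 in the experimental and 0.740 in the control line. Ldhb had no tested promoter. Of 19 hypoxia and glycolysis promoters 3 (15.8%, against 9.79% of all promoters) reached an unadjusted p under 0.05. Slc2a1, the glucose transporter GLUT1, was among them, at 0.185 and 0.0641 against 0.0 and 0.0. Angptl4, a hypoxia-induced secreted factor, had 0.379 and 0.438 against 0.564 and 0.752.

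Of 28 promoters of 2-oxoglutarate dioxygenases, the enzyme family that succinate can inhibit, 3 (10.7%, against 9.79% of all promoters) reached an unadjusted p under 0.05, P4ha3 among them. Alkbh3, a repair enzyme for alkylated bases, had 0.0549 and 0.0778 against 0.236 and 0.192. Of the 8 promoters of DNA methylation writers and erasers 0 did so, and Tet3 had 0.252 and 0.404 against 0.252 and 0.253. Dnmt3l, a cofactor of de novo methylation, had 0.554 and 0.0455 against 0.699 and 0.778, so that its experimental libraries were far apart.

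Of the developmental transcription factors 11 of 96 (11.5%, against 9.79% of all promoters) reached an unadjusted p under 0.05, 9 higher and 2 lower, with a median of 0.0282. Sim2, a neural basic helix-loop-helix factor, had 0.438 and 0.505 against 0.129 and 0.21 over 50 cytosines. Dlx5 had 0.0 and 0.0 against 0.524 and 0.5, over 3 cytosines.

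Among 21 fibroblast and mesenchymal genes 4 had an unadjusted p under 0.05, 3 higher and 1 lower, against 9.79% of all promoters, and none passed the adjusted threshold. Mmp2, a matrix metalloproteinase, had 0.368 and 0.471 against 0.2 and 0.0598, and Tagln, an actin-binding protein of contractile cells, had 0.0 and 0.00962 against 0.144 and 0.156. Chromaffin and neuroendocrine genes had 3 of 17 (17.6%, against 9.79% of all promoters) at that unadjusted p, all higher. Chga, chromogranin A of neuroendocrine granules, had 0.245 and 0.273 against 0.0620 and 0.0381, and it had a difference of 0.246 at day 0.

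Among epithelial genes Cldn3, a tight junction claudin, had 0.306 and 0.396 against 0.163 and 0.0752. Among imprinted genes 1 of 34 reached an unadjusted p under 0.05, Meg3, at 0.429 and 0.461 against 0.130 and 0.195. In the Wnt list Wnt10a had 0.436 and 0.415 against 0.0540 and 0.194 and Wnt5a had 0.306 and 0.351 against 0.558 and 0.678. Of 29 germline and pluripotency promoters 1 reached that threshold, Tdgf1, at 1.0 and 1.0 against 0.778 and 0.687. For the other lists, and in full for the Wnt and epithelial ones, that count was 2 of 12 for replication-dependent histones, 0 of 17 for cell cycle brakes, 1 of 18 for interferon and antiviral genes, 2 of 27 for microtubule and axoneme genes, 1 of 24 for proteasome subunits, 2 of 5 for clustered protocadherins, 4 of 47 for the Wnt list, 1 of 21 for epithelial genes and 1 of 9 for endothelial and blood genes. Numbered zinc finger genes had 8 higher and 8 lower among 198 (8.08%, against 9.79%).

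Over all 500 bp windows, promoters included, limma called 0 of 99418 windows (smallest adjusted p 0.374), with 9207 (9.26%) at an unadjusted p under 0.05. Among windows without overlap 7605 (7.65%) were over 0.2 higher and 4550 (4.58%) over 0.2 lower. Over single cytosines limma called 0 of 747609 (smallest adjusted p 0.331), with 61865 (8.28%) at an unadjusted p under 0.05, 37589 higher and 24276 lower. That 0 rested on the settings: 955 cytosines passed with day as a replicate block, 1005 in all 12 libraries, and 11120 when cytosines of 1 constant value were kept. The block leaves less freedom to estimate the spread than the main fit. Constant cytosines have no spread, and they enter the variance that limma shares among cytosines. Cytosines over 0.2 without overlap stayed at 83071 higher and 58985 lower with them kept.

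The windows outside promoters with the largest differences, are given as a description, chosen after their values were seen since none passed. The window of Hoxa3, Hoxa5 and Hoxaas3 (chr6:52202501-52203000, gene body) had 0.988 and 0.964 against 0.174 and 0.143, with 0.965 and 0.280 at day 0. A Thbd window (chr2:148407001-148407500), the stretch just past its promoter, had 0.921 and 0.902 against 0.0667 and 0.134, with 0.981 and 0.5 at day 0. A window in Ebf3, an early B-cell factor, held 36 cytosines (chr7:137309001-137309500) and had 0.0592 and 0.102 against 0.928 and 0.772, with 0.0554 and 0.718 at day 0.

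A Slit2 window had 0.0403 and 0.0 against 0.727 and 0.798, and a Hoxb3 window had 0.0261 and 0.0364 against 0.693 and 0.811. Both were in that order at day 0, at 0.116 and 0.553 for Slit2 and 0.0805 and 0.644 for Hoxb3. A window in Prrx1, 6394 bp from a TSS, had 0.188 and 0.0143 against 1.0 and 0.7, but 0.0600 and 0.00667 at day 0. A window in Kcnq1, an imprinted potassium channel gene, and in 4933417O13Rik had 0.0 and 0.0 against 0.738 and 1.0, with no day 0 value. A window in Cxxc5 had 0.95 and 0.95 against 0.24 and 0.2, with 0.82 and 0.4 at day 0. A window near Gm7115 had 0.956 and 0.905 against 0.167 and 0.246, with 0.875 and 0.646 at day 0. A distal window near 4933433H22Rik had 0.95 and 0.648 against 0.0 and 0.0, and 0.857 and 0.917 at day 0, so that the day 5 and 9 control libraries lay far from their own day 0 value.

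The line difference was small and of 1 sign across the genome. Over all analysed cytosines the mean beta value was 0.541 and 0.549 in the experimental line and 0.525 and 0.525 in the control line, a difference of 0.0203. An exact permutation test over the 4 libraries gave p = 0.333, the smallest that 2 against 2 allows. At day 0 the lines stood at 0.544 and 0.534, a difference of 0.0104, against 0.0199 at days 5 and 9 over the same cytosines. These cytosines were kept because they varied among the libraries of days 5 and 9, not on their day 0 values. That choice can enlarge the later difference, and day 0 had 1 library a line. The pair therefore cannot show whether the difference grew after day 0.

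By compartment the size depended on which cytosines were kept and how they were averaged. As the mean over varying cytosines the difference was 0.0216 in promoters (0.232 and 0.237 against 0.214 and 0.211), 0.0198 in gene bodies, 0.0206 within 10 kb of a gene and 0.0196 in distal sequence. With constant cytosines kept it was 0.00849 in promoters, 0.0144 in gene bodies, 0.0177 within 10 kb and 0.0178 in distal sequence. As a median over cytosines it was 0.00441 in promoters and 0.0484, 0.0475 and 0.0466 in the other compartments. By density it was 0.0204 in windows of 1 to 2 cytosines and 0.0181 in those of 30 or more. All 19 autosomes had a higher mean in the experimental line with no overlap, by 0.0114 to 0.0266, and all 19 were also higher at day 0. Between days 5 and 9 of the experimental line 36.4% of cytosines differed by over 0.2, against 31.4% in the control line and 35.1% between the lines at day 5.

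**Figure D5:**
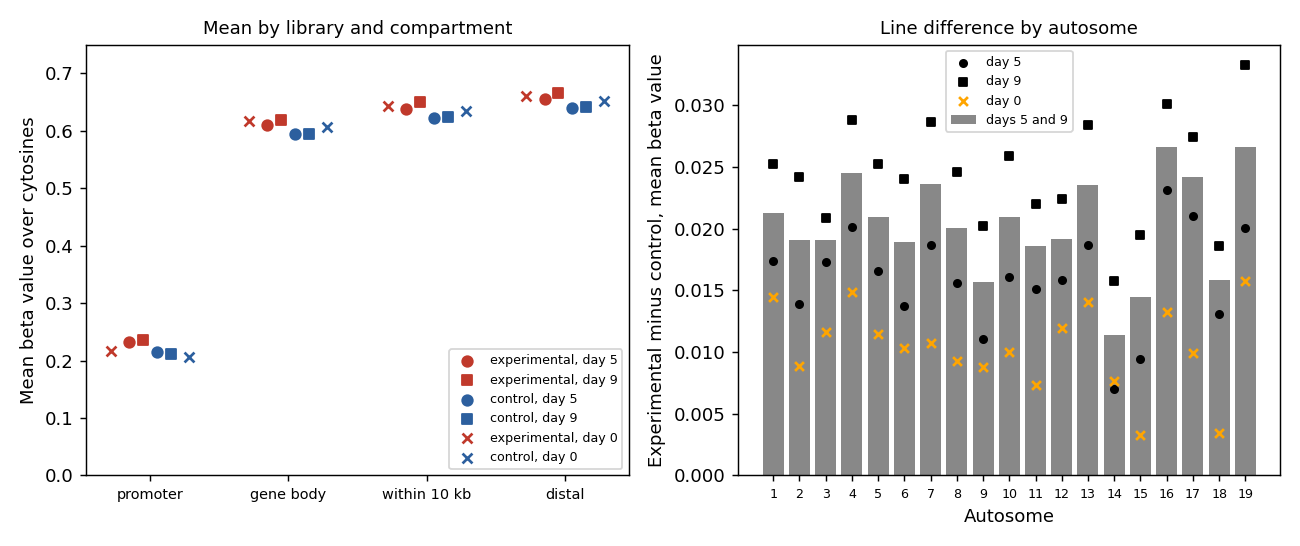
Left, mean beta value (y axis) of 4 compartments (x axis) in each library, with red for the experimental and blue for the control line, circles for day 5, squares for day 9 and crosses for day 0. Right, experimental minus control mean beta value of each autosome at days 5 and 9 (bars, mean; circles, day 5; squares, day 9) and day 0 (crosses); every bar is above 0, from 0.0114 to 0.0266.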

How the data were processed

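RRBS libraries of 2 iMEF lines were sequenced and aligned by the authors with Bismark to mm10 (per the labels and submitters' processing notes; versions are not given in the sources used here). The deposited values are the percent of methylated reads per CpG cytosine, without depth, so no binomial interval could be given. Percentages were divided by 100 to beta values. Autosomal cytosines listed in all 4 libraries of days 5 and 9 were kept, and 417857 of 1165466 (35.9%) with 1 value in all 4 were left out, which raises the level of unmethylated promoters. Means over promoters, 500 bp windows and cytosines became M-values, log2((beta + 0.01)/(1 - beta + 0.01)), compared between lines with limma 3.58.1 in R 4.3.3 (two-sided, Benjamini-Hochberg, threshold 0.05, no covariate). The 6-group fit of all 12 libraries tested changes since day 0 and up to the late days. Gene models were RefSeq mm10, and gene strand came from RefSeq where given, otherwise from the matching symbol in another annotation. Because no promoter passed, the 10 largest differences of each direction in mean beta value were named among promoters with 5 or more cytosines, the same sign at both days and no overlap between lines. The 5 largest changes since day 0 of each direction, the 5 largest windows of each direction outside promoters, and up to 4 members of each gene list with the largest differences were also considered, with Sdhc, Sdhb, Ldha, Ldhb, Pcx and Aldh2. The members and lists were chosen with earlier results of these data known. Analyses ran in Python 3.11.15, the limma code was tested on simulated data, and alternatives are listed in the closing section. The libraries of 1 line share cells, so p-values measure the spread between harvests. Results for some genes are not reported here.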

Additional observations from a re-analysis of the deposited data

Results flagged for a closer look

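The Y chromosome was outside the comparison, which used autosomes, and it separated the lines. In the experimental line 1564 and 1229 Y chromosome cytosines were listed at days 5 and 9, against 171 and 192 in the control line, and in the series as a whole the counts ran from 1229 to 1622 in the experimental line and from 166 to 204 in the control line. The part of this difference in the autosomal results was not tested. Groups of 2 libraries were too small to look for a library standing apart.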

How the results depend on the processing

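Alternatives left 0 promoters called with limma in all settings but the fit of 12 libraries, where 1 passed, and 0 windows in every setting run. Promoters at an unadjusted p under 0.05 were 830 of 6417 (12.9%, against 9.79% of 14317) with at least 10 cytosines and, leaving out 1 library, 698 (without the day 9 control library) to 1665. Those over 0.2 without overlap were 340 higher and 163 lower with 12 libraries, 355 and 134 with at least 5 cytosines, 189 and 56 with at least 10, and 637 to 964 higher and 324 to 446 lower without 1 library. Of single cytosines 1005 passed with 12 libraries and 11120 with constant cytosines kept. For the change since day 0, 2 promoters passed with the offset of 0.001 and 21 on beta values. With constant cytosines kept the mean difference was 0.0130 over all cytosines, 0.00849 in promoters and 0.0144 in gene bodies. As a median over cytosines it was 0.0444 over all, 0.00441 in promoters, 0.0484 in gene bodies, 0.0475 within 10 kb and 0.0466 in distal sequence. Leaving out 1 library gave 0.0160 to 0.0245 over all cytosines. The causes were not tested. Of 548 values of 34 named promoters under alternatives 541 kept their sign, the exceptions being Vmn2r29, Gm40847, Sdhc, Sdhb and Ldha.

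Day numbers are shared by the lines but mark no common sample: with day as a replicate block 0 promoters passed (1243 at an unadjusted p under 0.05), 0 windows and 955 cytosines. The correlation of day 5 minus day 9 between the lines was 0.0317 over 14317 promoters. Only 2 libraries a side and unknown depth limit what could be called.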
